A study of Rattus norvegicus with 24 samples.

Results

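The miR-221 and miR-222 cluster was examined in small RNA-seq of the rat brain. Its members were every miRNA whose name begins rno-miR-221- or rno-miR-222-, both arms of each hairpin, which gave 4 of the 728 miRNAs counted: rno-miR-221-3p, rno-miR-221-5p, rno-miR-222-3p and rno-miR-222-5p. The first 3 passed the filter on low counts, and rno-miR-222-5p did not.

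Perilesional cortex and ipsilateral thalamus were taken from 12 adult male Sprague-Dawley rats, 3 months after surgery. Of these, 6 had traumatic brain injury (TBI) by lateral fluid percussion, in which a pulse of saline strikes the intact dura through a hole in the skull, and 6 were sham-operated controls that had the anaesthesia and the surgery without the pulse. With both regions of every rat sequenced on their own, this made 24 libraries. The study picked the injured rats for persistent inflammation seen on imaging, so the TBI group does not stand for all injured rats.

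miR-221 and miR-222 are made from neighbouring hairpins on the X chromosome. Each hairpin is cut into a duplex whose 3p and 5p strands are its arms, and one arm is usually loaded into Argonaute and kept while the other is degraded. A miRNA finds its targets mainly through its seed, a short run near its 5′ end. miR-221-3p and miR-222-3p are best known for repressing Cdkn1b, a brake on the cell cycle, and Kit, a growth factor receptor, and are abundant in endothelium and vascular smooth muscle.

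The mature sequences are shown because the 3p arms, but not the 5p arms, share a seed. They are written 5′ to 3′ as RefSeq gives them for the assembly GRCr8, with the seed (bases 2 to 8) in capitals.
rno-miR-221-3p: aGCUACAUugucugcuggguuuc
rno-miR-222-3p: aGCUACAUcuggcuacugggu
rno-miR-221-5p: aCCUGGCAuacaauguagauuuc
rno-miR-222-5p: gGCUCAGUagccaguguagau

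The 2 3p arms began with the same 8 bases and first differed at base 9. Laid base 1 to base 1, 11 of the 21 bases compared were the same. Among the 724 mature rat miRNAs of the RefSeq table, no other carried this seed, and the seed of each 5p arm was found in that arm alone. The 4 members all matched an entry by name, as did 655 of the 728 miRNAs counted. On GRCr8 both hairpins lay on the plus strand of the X chromosome, Mir222 from 6022621 to 6022723 and Mir221 from 6023182 to 6023290, with 458 bases between them. Both were inside the long non-coding RNA genes LOC120099382 and LOC120099384. The reads had been mapped by the authors to the older assembly RGSC3.4, so these positions describe the annotation and not the alignments.

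The libraries held 744564 to 4069284 miRNA reads in cortex and 523298 to 4139901 in thalamus. The shallowest thalamic libraries were those of sham rat 55, with 523298 reads, and TBI rat 56, with 538194. The thalamic library of rat 55 had a median correlation of 0.939 with the others of its group, against 0.976 to 0.985 for those others. Values that moved by over 1.5 times or changed a call without these libraries are also given without them. Where regions were compared, or the injury effect between regions, the cortical libraries of rats 55 and 56 were left out too. Markers of neurons (miR-124-3p, miR-9a-5p, miR-9a-3p, miR-128-3p and miR-138-5p) were read in all 4 groups, none of them at 0 throughout a group. In dissected tissue, fewer cells of a type and less of a miRNA per cell cannot be told apart.

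The 4 members were read at very different levels. In TBI cortex miR-221-3p stood 45th of 728 miRNAs by its mean normalised read count, in reads per 1000000 (CPM) with trimmed mean of M-values (TMM) scaling over the 24 libraries. There miR-222-3p was 75th and miR-221-5p 157th. In TBI thalamus their places were lower, at 65, 116 and 218. The mature forms differ by at most a few bases in length, but how well each sequence is ligated to the adapters was not measured, so the order of levels is an order of reads.

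Almost no reads came from the 5p arm of miR-222. rno-miR-222-5p had 16 reads in all, at most 2 in a library and 0 in 12 of the 24. This was 0.0433% of the 36947 reads of both arms of miR-222 (95% exact Clopper-Pearson interval 0.0248% to 0.0703%). Its highest level was 3.11 CPM, and a count of 0 allowed up to 0.620 CPM in the deepest library and 6.72 CPM in the shallowest (3 reads). Intervals and floors of this kind cover counting error only, since PCR copies are not independent molecules. No difference between groups was detectable for it at this depth.

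**Figure D1:**
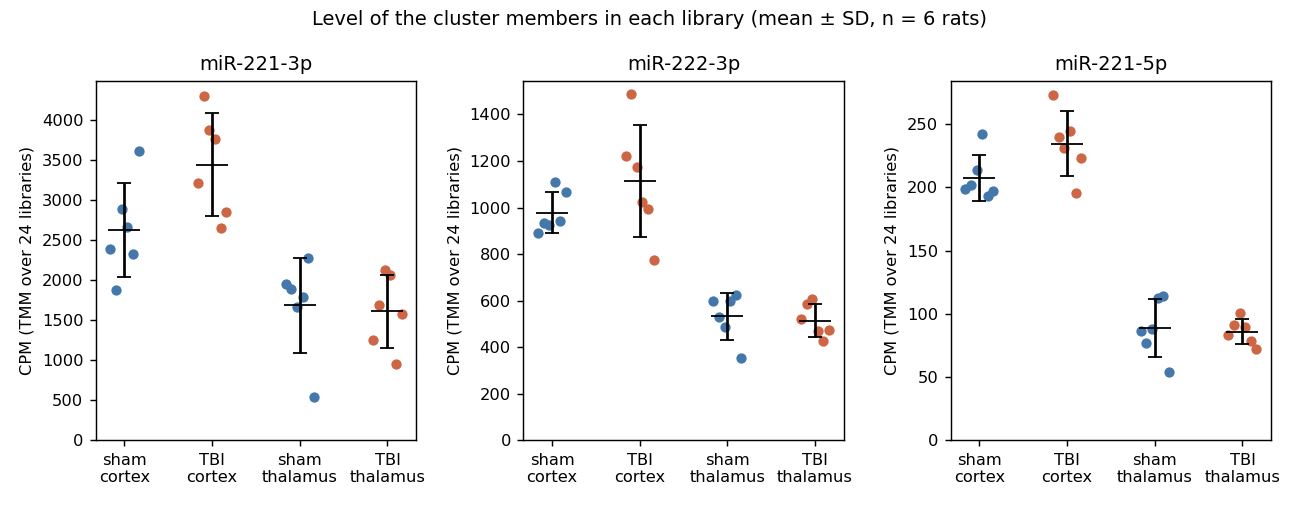
Normalised read count (CPM, TMM over 24 libraries, linear axis from 0) of miR-221-3p, miR-222-3p and miR-221-5p in each library, with 1 point per rat and bars for the mean ± SD of the 6 rats of a group. All thalamic points of miR-222-3p and miR-221-5p lie below all cortical ones, while those of miR-221-3p overlap with sham cortex, where the lowest rat had 1884 CPM. How many of all miRNAs separate the regions in this way was not computed.

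The first comparison asked whether the cluster differed between TBI and sham rats in the perilesional cortex. All 3 tested members had higher means in TBI, by 1.16-fold to 1.36-fold, and none reached the threshold of 0.05 on the adjusted p (edgeR, quasi-likelihood). Over all 371 miRNAs tested in cortex, 21 passed, which is 5.66%. One of the 3 members, miR-221-3p, had an unadjusted p under 0.05 in edgeR, as did 81 of all 371 miRNAs. DESeq2 also passed 0 of the 3, against 38 of the 328 miRNAs it tested.

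In cortex, with TMM over the 12 cortical libraries, miR-221-3p ran from 1716 to 3250 CPM in sham rats (median 2263) and from 2492 to 3943 CPM in TBI rats (median 3161). The 3 highest TBI rats were above every sham rat, and all 6 were above the sham median, but the groups overlapped. The mean of the sham rats was 2336 ± 512 CPM (SD, n = 6) and that of the TBI rats 3167 ± 624 CPM (SD, n = 6). The log2 fold change was 0.44 (SE 0.16, 95% interval 0.09 to 0.79), with adjusted p = 0.128 in edgeR. The sham rat with the highest value was rat 55. Without it the log2 fold change was 0.47 and passed, with adjusted p = 0.0443 in edgeR.

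The other arm of the same hairpin, miR-221-5p, had 171 to 206 CPM in sham cortex (median 182) and 183 to 235 CPM in TBI cortex (median 217). Of the TBI rats, 5 were above every sham rat, and rat 56 fell within the sham range. The log2 fold change was 0.22 (SE 0.12, 95% interval -0.03 to 0.47), with adjusted p = 0.264 in edgeR. Without sham rat 55 it was 0.14.

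For miR-222-3p the cortical values were 783 to 959 CPM in sham (median 845) and 738 to 1362 CPM in TBI (median 991). Of the TBI rats, 4 were above every sham rat and 1 was below every sham rat, so the injured group was the more spread. The log2 fold change was 0.23 (SE 0.14, 95% interval -0.07 to 0.53), with adjusted p = 0.313 in edgeR. Without TBI rat 24, the highest, it was 0.13, and without sham rat 26 it was 0.15. With tRNA features scaled and fitted together with the miRNAs, the log2 fold changes in cortex were 0.30 for miR-221-3p, 0.09 for miR-221-5p and 0.09 for miR-222-3p, and none passed in edgeR.

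Because the 3p arms share a seed, their CPM were also summed. The summed level in cortex was 3426 to 5305 CPM in TBI rats (median 4113) and 2568 to 4209 CPM in sham rats (median 3155). On the log2 scale the TBI mean was 0.38 above the sham mean (exact two-sided permutation test, p = 0.0325, adjusted p = 0.0974 over the 9 tests of sums and ratios). The summed level, too, depended on sham rat 55, as without it the difference was 0.46 with adjusted p = 0.0195 in the exact permutation test. Of the 12 single rats left out in turn, only this 1 made the sum pass, and the adjusted p ran up to 0.208 in that test.

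Marker miRNAs of cell types were read beside these values. In cortex miR-128-3p, the most abundant of the neuronal list, fell in TBI (log2 fold change -0.75, SE 0.16, adjusted p = 0.0231 in edgeR), as the only one of 5, and the list's median was -0.17 against 0.05 over all miRNAs. The 4 leukocyte and microglial miRNAs had a median of 0.56 and the 3 tested miRNAs of inflammation and glial reaction one of 0.72, but none of them passed in edgeR. The summed leukocyte and microglial level was 788 to 1283 CPM in sham cortex and 862 to 1873 CPM in TBI cortex (TMM over 24 libraries). Most of that sum was miR-150-5p, with a mean of 1117 CPM over the 24 libraries, and miR-142-5p came next with 59.5 CPM. None of the 5 vascular, 2 red cell and 4 oligodendrocyte miRNAs passed either, with medians of 0.04, -0.06 and 0.11. The part of these cell types in the members' values was not tested.

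In the ipsilateral thalamus the same comparison gave similar means for every member, with log2 fold changes of -0.07 to -0.05. None of the 3 passed in edgeR, none had an unadjusted p under 0.05 and DESeq2 passed 0. Few miRNAs did so at all: 22 of 390 had an unadjusted p under 0.05 in edgeR, and DESeq2 passed 3 of 597. Over the 390 miRNAs tested in thalamus, 2 passed, which is 0.513%.

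In thalamus, with TMM over the 12 thalamic libraries, miR-221-3p ran from 1064 to 2276 CPM in TBI rats (median 1826) and from 629 to 2577 CPM in sham rats (median 2077). The TBI range lay inside the sham range. The log2 fold change was -0.07 (SE 0.29, 95% interval -0.69 to 0.54), with adjusted p = 0.982 in edgeR. This interval covers the value of 0.44 fitted in cortex, so a change of that size in thalamus could not be told from none.

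The other members were as close. miR-222-3p had 477 to 659 CPM in TBI thalamus (median 563) and 406 to 704 CPM in sham thalamus (median 621), a log2 fold change of -0.05 (SE 0.18, 95% interval -0.44 to 0.33, adjusted p = 0.971 in edgeR). miR-221-5p had 79.6 to 108 CPM in TBI (median 96.1) and 61.6 to 132 CPM in sham (median 92.8), a log2 fold change of -0.06 (SE 0.20, 95% interval -0.49 to 0.37, adjusted p = 0.972 in edgeR). For all 3 the sham group was the more spread, with rat 55 lowest. Without the thalamic libraries of rats 55 and 56 the log2 fold changes were -0.14 for miR-221-3p, -0.13 for miR-221-5p and -0.09 for miR-222-3p, and none passed (adjusted p from 0.812 to 0.883 in edgeR). Of the 3 tested miRNAs of inflammation and glial reaction, miR-146a-5p rose in TBI thalamus and so did miR-155-5p, both regulators of inflammatory signalling, and these were the 2 that passed there. Of the neuronal, vascular, red cell, leukocyte and microglial (3 tested), and oligodendrocyte lists, none passed in thalamus, with median log2 fold changes of -0.30, 0.29, -0.07, 0.58 and 0.03.

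The injury effect was also compared between the regions, as an interaction over all 24 libraries. The effect in thalamus minus that in cortex was -0.46 for miR-221-3p (SE 0.35, 95% interval -1.17 to 0.26), -0.24 for miR-222-3p (SE 0.22) and -0.23 for miR-221-5p (SE 0.22), each with adjusted p = 1.00 in edgeR. Of the 407 miRNAs tested, 0 passed (0%) in edgeR and 0 in DESeq2, and 16 had an unadjusted p under 0.05 in edgeR. Without rats 55 and 56 the values were -0.74 for miR-221-3p (adjusted p = 0.330 in edgeR), -0.37 for miR-222-3p and -0.37 for miR-221-5p, and none passed, although miR-221-3p then had an unadjusted p of 0.00322 in edgeR. When single rats were left out, miR-221-3p ran from -0.78 (without sham rat 55) to -0.30 (without sham rat 50), miR-221-5p from -0.34 to -0.0917 and miR-222-3p from -0.37 to -0.14, with the same rats left out at each end. No difference of the injury effect between the regions passed for any member.

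**Figure D2:**
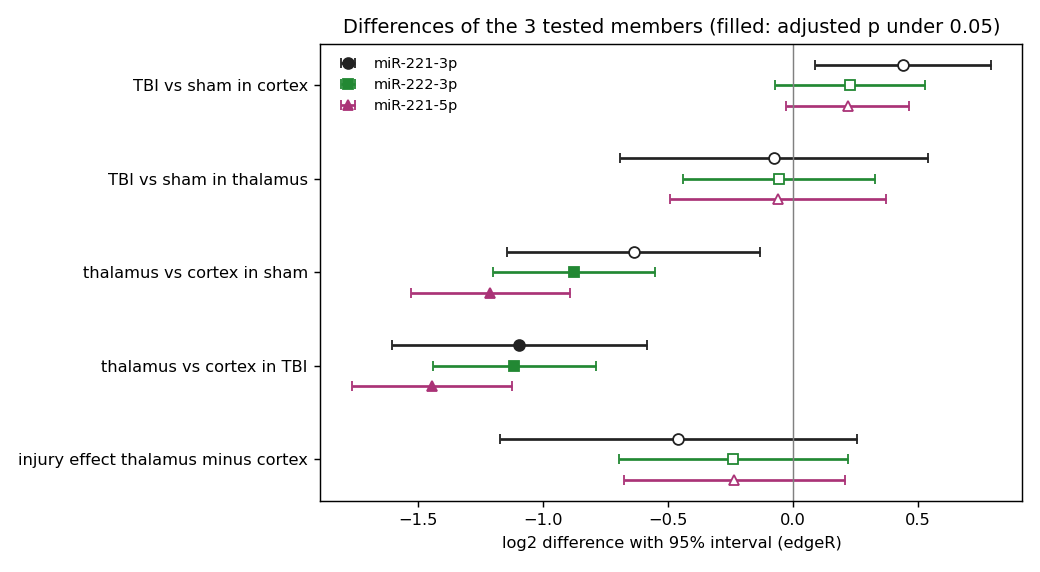
Log2 differences (points) with 95% intervals (bars) from edgeR for miR-221-3p, miR-222-3p and miR-221-5p in the 5 comparisons, the last being the interaction. Filled points passed an adjusted p of 0.05, which only differences between regions did, from -0.88 for miR-222-3p in sham to -1.44 for miR-221-5p in TBI.

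The larger differences lay between the regions. All 3 tested members had lower levels in thalamus than in cortex, in sham and in TBI rats, and these comparisons used 1 fit and 1 TMM scaling over the 24 libraries. In sham rats 2 of the 3 passed as lower in thalamus in edgeR, against 12.3% of all 407 miRNAs tested. In TBI rats all 3 passed, against 13.3%. All TBI rats and all but 1 sham rat (for miR-221-3p only) had the lower value in thalamus.

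miR-221-5p differed the most. On this scale it ran from 193 to 242 CPM in sham cortex (median 200) and from 53.7 to 114 CPM in sham thalamus (median 87.5), so the regions did not overlap. In TBI rats it ran from 195 to 273 CPM in cortex (median 235) and from 72.2 to 101 CPM in thalamus (median 86.4), again without overlap. How many of all tested miRNAs separated the regions in this way was not computed. The level was 2.31-fold higher in cortex than in thalamus in sham (thalamus minus cortex on the log2 scale -1.21, SE 0.15, adjusted p = 1.9e-06 in edgeR) and 2.72-fold higher in TBI (log2 -1.44, SE 0.15, adjusted p = 1.28e-07 in edgeR).

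miR-222-3p had 890 to 1111 CPM in sham cortex (median 940) and 354 to 625 CPM in sham thalamus (median 565). In TBI it had 776 to 1487 CPM in cortex (median 1100) and 427 to 606 CPM in thalamus (median 498). The regions did not overlap in either group. The share of all tested miRNAs without such overlap was not computed, here or for the other members. The log2 difference was -0.88 in sham (SE 0.16, adjusted p = 0.000119 in edgeR) and -1.11 in TBI (SE 0.16, adjusted p = 8.05e-06 in edgeR).

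miR-221-3p, the member with the most reads, separated the regions in TBI rats. It had 2655 to 4305 CPM in TBI cortex (median 3494) and 952 to 2125 CPM in TBI thalamus (median 1637), a log2 difference of -1.10 (SE 0.25, adjusted p = 0.00173 in edgeR). In sham rats it had 1884 to 3618 CPM in cortex (median 2533) and 548 to 2285 CPM in thalamus (median 1841), and 3 of the 6 thalamic libraries were below every cortical one. The log2 difference of -0.64 (SE 0.25, 95% interval -1.14 to -0.13) did not pass in edgeR (adjusted p = 0.0602). With the rat as a block it was -0.69 and passed (adjusted p = 0.0463 in edgeR).

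That sham value leaned on rat 55, which held the highest cortical and the lowest thalamic level of miR-221-3p among the sham rats, 3618 and 548 CPM. Without rat 55 the log2 difference in sham was -0.33 (adjusted p = 0.218 in edgeR), and without rats 55 and 56 it was -0.32 (adjusted p = 0.134 in edgeR). Without those 2 rats the sham differences of miR-221-5p and miR-222-3p were -1.11 and -0.74 and still passed (adjusted p = 5.35e-06 and 0.000769 in edgeR), as did all 3 members in TBI. The thalamic library of rat 55 also held the highest summed neuronal, vascular, oligodendrocyte, and inflammation and glial marker levels in its group. These were 330186, 41551, 21103 and 14773 CPM. Its summed red cell level was the lowest of the group, 15.7 CPM. The leukocyte and microglial level of that library, 869 CPM, was at neither end.

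**Figure D3:**
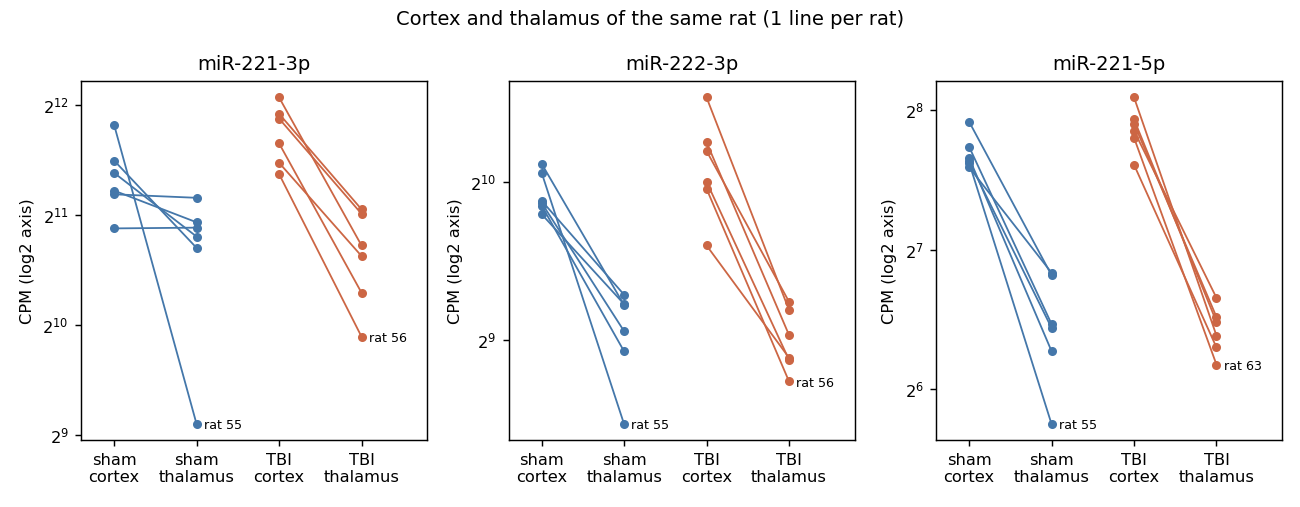
Levels (CPM on a log2 axis, TMM over 24 libraries) of miR-221-3p, miR-222-3p and miR-221-5p in cortex and thalamus, with 1 line for each of the 12 rats and the rat with the lowest thalamic value of each group named. Lines fall from cortex to thalamus for every rat except sham rat 32 in miR-221-3p, which had 1884 and 1893 CPM, and the line of rat 55 falls from 3618 to 548 CPM.

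The mean levels of all 3 had the order TBI cortex, sham cortex, sham thalamus, TBI thalamus. In that order no member passed the adjusted threshold between the 2 cortical groups, nor between the 2 thalamic groups, with all rats kept. For miR-221-3p in cortex the unadjusted p was 0.0176 and the adjusted p 0.128, both in edgeR. Sham cortex and sham thalamus differed for miR-222-3p and miR-221-5p, while for miR-221-3p they passed only with the rat as a block.

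The scale of the region difference depended on the normalization. With library size in place of TMM, the median log2 difference of all miRNAs moved by 0.42 in sham rats and by 0.18 in TBI rats, toward thalamus. On that scale the sham differences were -0.75 for miR-221-5p, which passed (adjusted p = 0.00445 in edgeR), -0.43 for miR-222-3p (adjusted p = 0.0889 in edgeR) and -0.19 for miR-221-3p (adjusted p = 0.634 in edgeR), and in TBI rats all 3 passed. Taken relative to the median of all miRNAs, the sham values were -1.25, -0.91 and -0.67 with TMM and -1.20, -0.88 and -0.64 with library size. The split of all calls moved with it, from 52 higher and 50 lower in thalamus with TMM to 146 higher and 22 lower with library size in sham rats, and from 57 and 54 to 69 and 34 in TBI rats. In cortex, between TBI and sham, library size moved the median by 0.20 and the split from 11 higher and 10 lower to 36 and 3, and miR-221-3p to 0.63 (adjusted p = 0.0592 in edgeR).

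The seed-sharing pair was lower in thalamus as a sum. In every one of the 12 rats the summed CPM of miR-221-3p and miR-222-3p was lower in thalamus, by a mean of 0.94 on the log2 scale (SD 0.61 over 12 rats; exact two-sided sign-flip permutation test, p = 0.000488, the smallest that sign flips of 12 rats allow, adjusted p = 0.00439). With library size in place of TMM the mean difference was -0.65 and did not pass (adjusted p = 0.0877, exact permutation test).

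Markers of cell types differed between the regions as well. Of the 5 neuronal miRNAs, 3 were lower in thalamus in sham and 4 in TBI, with medians of -0.57 and -0.77 against 0.04 and -0.03 over all miRNAs. The summed neuronal level was 336122 to 615786 CPM in sham cortex and 176392 to 330186 CPM in sham thalamus, and 255276 to 339447 CPM in TBI cortex and 128382 to 251399 CPM in TBI thalamus. All 4 oligodendrocyte miRNAs were higher in thalamus in both groups, with medians of 1.52 and 1.37. Of the 5 vascular miRNAs, miR-143-3p and miR-145-3p were lower in thalamus in sham (named after their values were seen) and none in TBI, with medians of -0.54 and -0.36. Those passing in neither group were miR-126a-3p (-0.04 in sham and 0.16 in TBI), miR-126a-5p (-0.19 and -0.09) and miR-145-5p (-0.54 and -0.58). The summed vascular level was 36527 to 60937 CPM in sham cortex and 28558 to 41551 CPM in sham thalamus, and 40856 to 61102 CPM in TBI cortex and 29677 to 54619 CPM in TBI thalamus. miR-143-3p had the largest mean in this sum, 29164 CPM over the 24 libraries, and miR-126a-3p the next, 12239 CPM. miR-21-5p, of the 3 tested miRNAs of inflammation and glial reaction, was higher in thalamus in both groups, and no red cell or leukocyte and microglial miRNA passed, with medians of -0.45 and -0.45 for red cells and -0.04 and 0.23 for leukocytes and microglia. The part of the cell makeup of the regions in the members' differences was not tested.

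Ratios within a library do not depend on its scaling, and were taken for the seed-sharing pair and for the arms of the miR-221 hairpin. There were 2.01 to 3.39 reads of miR-221-3p per read of miR-222-3p in sham cortex (median 2.58) and 2.64 to 3.67 in TBI cortex (median 3.10). The mean log2 ratio was 1.40 ± 0.27 (SD, n = 6) in sham cortex and 1.64 ± 0.22 (SD, n = 6) in TBI cortex, a difference of 0.24 that did not pass (exact two-sided permutation test, p = 0.136, adjusted p = 0.307). In thalamus the ratio was 1.55 to 3.66 in sham (median 3.34) and had a median of 3.12 in TBI, the lowest rat having 2.23, and the log2 means differed by 0.04 (exact permutation test, p = 0.898, adjusted p = 0.961). Between the regions the log2 ratio differed by 0.07 on average (SD 0.49 over 12 rats, higher in thalamus in 8 of 12; exact sign-flip permutation test, p = 0.655, adjusted p = 0.961). Without rats 55 and 56 the difference was 0.22, higher in thalamus in 8 of 10 rats, and did not pass after adjustment (exact permutation test, p = 0.0449, adjusted p = 0.101).

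The arm ratio of miR-221 had a higher mean in thalamus, a difference that passed only without rat 55. There were 9.32 to 18.3 reads of miR-221-3p per read of miR-221-5p in sham cortex (median 12.1) and 11.8 to 18.0 in TBI cortex (median 14.5). In thalamus there were 10.2 to 24.5 in sham (median 19.4) and 12.1 to 23.1 in TBI (median 19.8). The log2 ratio was higher in thalamus in 10 of 12 rats, by a mean of 0.42 (SD 0.57 over 12 rats; exact two-sided sign-flip permutation test, p = 0.0293, adjusted p = 0.0974). Without rat 55, whose thalamic ratio was the lowest, the difference was 0.54 (adjusted p = 0.0132), and without rats 55 and 56 it was 0.61 (adjusted p = 0.00879), both by the exact permutation test. The 5p arm made up 5.17% to 9.69% of the reads of both arms in sham cortex (median 7.65%) and 3.92% to 8.92% in sham thalamus (median 4.90%). In TBI rats it made up 5.27% to 7.81% in cortex (median 6.48%) and 4.15% to 7.63% in thalamus (median 4.83%).

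No difference of the mean arm ratio between TBI and sham rats passed in either region, and no interval was computed for its size. The log2 ratio was 3.86 ± 0.24 (SD, n = 6) in TBI cortex and 3.64 ± 0.33 (SD, n = 6) in sham cortex (exact permutation test, p = 0.201, adjusted p = 0.362). In thalamus it was 4.18 ± 0.37 (SD, n = 6) in TBI and 4.16 ± 0.46 (SD, n = 6) in sham (exact permutation test, p = 0.939, adjusted p = 0.961).

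**Figure D4:**
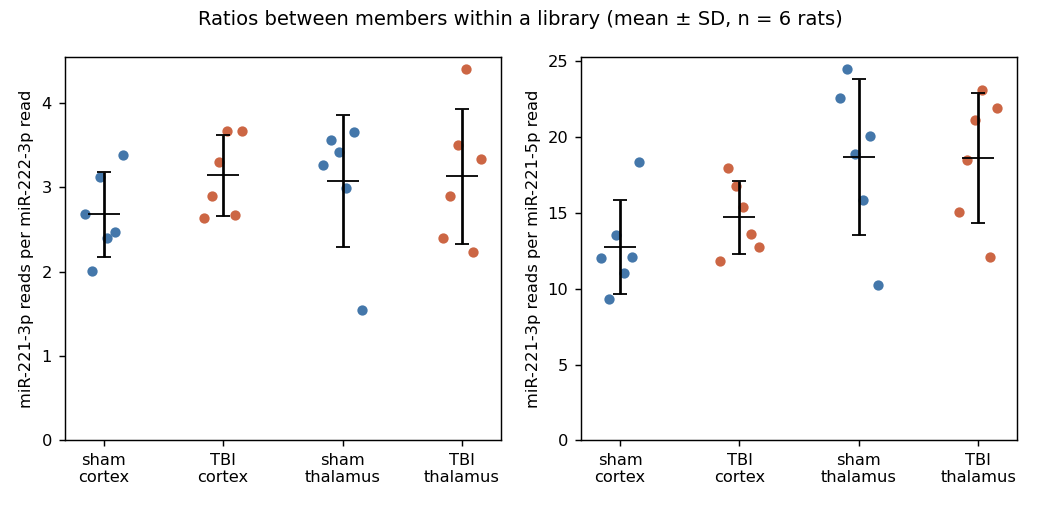
Reads of miR-221-3p per read of miR-222-3p (left) and per read of miR-221-5p (right) in each library, on linear axes from 0, with 1 point per rat and bars for the mean ± SD of the 6 rats of a group. The left ratio has similar means in the 4 groups, from 2.68 to 3.14, while the right ratio has means of 12.7 and 14.7 in cortex and 18.7 and 18.6 in thalamus.

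Relations between members were also computed within each group. Over the 6 sham thalamic libraries miR-221-3p and miR-222-3p had Pearson's r = 0.90 (exact permutation p = 0.00833) and Spearman's rho = 0.94 (exact permutation p = 0.0167), with adjusted p = 0.117 for r and 0.233 for rho over the 14 relations computed, and r = 0.89 once the 2 libraries with the most extreme miR-221-3p were left out. In the other groups r was 0.45 in sham cortex, 0.71 in TBI cortex and 0.47 in TBI thalamus, and became -0.28, 0.59 and 0.16 when the 2 most extreme libraries were left out. None of the 14 relations passed after adjustment. With library size in place of TMM the relation passed in sham thalamus by both measures (r = 0.98 and rho = 1.00, each with adjusted exact permutation p = 0.0389, r = 0.86 without the 2 most extreme libraries). In sham cortex it passed by r = 0.93 (adjusted exact permutation p = 0.0389) but not by rho = 0.94 (adjusted exact permutation p = 0.0933), and r was 0.57 without the 2 most extreme libraries.

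Across regions, the level of miR-221-3p in cortex was set against that in thalamus of the same rat, in TBI (r = 0.83, exact permutation p = 0.0278, rho = 0.77, exact permutation p = 0.103, adjusted p = 0.194 for r and 0.360 for rho, r = 0.96 without the 2 farthest rats). In sham rats r was negative (r = -0.84, exact permutation p = 0.0806, rho = -0.66, exact permutation p = 0.175, adjusted p = 0.220 for r and 0.483 for rho, r = -0.996 without the 2 farthest rats). With library size in place of TMM, r was 0.81 in TBI rats (0.86 without the 2 farthest) and -0.72 in sham rats (-0.61). Each group held 6 rats, so a value of r without 2 of them rests on very few. The difference between TBI and sham rats was not tested.

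The miRNAs whose levels were most like those of each member were listed over the 24 libraries, as Pearson's r of log2 CPM after each group's mean was taken out, among 406 other miRNAs. For miR-221-3p they were miR-361-5p (r = 0.92), miR-125a-5p (0.92), miR-532-3p (0.91), miR-23a-3p (0.91) and miR-494-3p (0.90). For miR-222-3p they were miR-487b-3p (r = 0.88), miR-410-3p (0.81), miR-186-5p (0.81), miR-494-3p (0.79) and miR-30c-5p (0.78), and for miR-221-5p they were miR-30c-5p (r = 0.88), miR-124-5p (0.81), miR-494-3p (0.80), miR-434-3p (0.79) and miR-379-3p (0.78). miR-494-3p stood among the 5 of all 3 members. The members themselves were not in these lists. For miR-221-3p, miR-222-3p came 37th (r = 0.73) and miR-221-5p 47th (r = 0.71) of the 406. Libraries share depth and scaling across all miRNAs, so these values are descriptions. The shallow libraries of rats 55 and 56 carried part of them, since over the other 22 libraries r fell to 0.56 for miR-221-3p with miR-222-3p and to 0.45 for miR-221-3p with miR-221-5p, while that with miR-361-5p was 0.87.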

How the data were processed

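Small RNA was sequenced from 24 libraries. By the methods of the study, the authors selected inserts by size, trimmed adapters, mapped reads to RGSC3.4 and annotated them with miRBase 20; the mapper and how reads shared by near-identical sequences were counted are not given in the sources used here. The authors deposited whole read counts per miRNA. The 444 tRNA features of the cortical table entered 1 alternative only, and the authors' CPM tables were not used.

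Groups and rat numbers came from the sample titles. Counts were tested with edgeR 4.0.16 (R 4.3.3; filterByExpr, TMM, quasi-likelihood F test, Benjamini-Hochberg over all miRNAs tested, threshold 0.05), per region for TBI against sham and over all 24 libraries for regions and the interaction. Fits were tested on simulated data. Standard errors are the log2 fold change over the square root of F. Log2 ratios (0.5 reads added to each count) and log2 sums (nothing added) were tested by exact permutation in Python (scipy 1.17.1).

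Cortex and thalamus of the same number come from 1 animal. Deviations from group means correlated between them with a median of 0.385 (-0.183 to 0.64, over 0.1 in 8 of 12 rats). No 2 libraries of a group agreed within sampling noise.

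Named are the members, marker lists for cell types (given by counts, with at most 4 examples each by level; the neuronal list is spelled out once, and calls of 5 or fewer were also named after their values were seen) and the 5 miRNAs most like each member. Members and lists were chosen with earlier results of these data known. Alternatives were other scalings, filters, miRNAs with tRNA features, DESeq2 1.42.0, the rat as a block and leaving out libraries. Leaving out the 2 shallowest thalamic libraries, and the cortical libraries of the same rats where regions were compared, was chosen after seeing the data.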

Additional observations from a re-analysis of the deposited data

Results flagged for a closer look

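The log2 ratio of miR-221-3p to miR-222-3p in the thalamus of sham rat 55 was 0.631, while the next lowest of the 6 sham rats had 1.58. The gap was 0.768 of the whole range of the group, above Dixon's critical value for 6 samples. Of 24 groups of 6 values examined, 1 stood out in this way, and chance gives about 1 in 20 groups, or 1.2 of 24. The library was the shallowest of all, with 523298 miRNA reads, of which 245 were miR-221-3p and 158 were miR-222-3p. The cause was not tested.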

How the results depend on the processing

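The number of miRNAs passing in cortex was 21, and became 39 with library size only, 1 with scaling to 4 reference miRNAs, 38 with DESeq2, 5 in the fit of 24 libraries and 4 to 30 when single rats were left out. In thalamus the 2 became 0 with the reference miRNAs, 1 with a mean count of at least 50, 5 in the fit of 24 libraries and 0 to 2 without single rats. In the sham regions the 102 became 168 with library size only. Sham rats' thalamic miR-221-3p was -0.69 against cortex with the replicate block (adjusted p = 0.0463 in edgeR), which changed no other call of a member. Over all miRNAs the block moved the calls from 102 to 128 in sham and from 111 to 131 in TBI. Library size only gave -0.43 for miR-222-3p there and -0.65 for the summed pair. Without the 2 shallowest thalamic libraries the arm ratio between regions was 0.61 and passed, and the thalamic injury differences turned to -0.0564 for the ratio of miR-221-3p to miR-222-3p and -0.0314 for the arm ratio. With library size only the cortical sham relation of miR-221-3p with miR-221-5p turned from -0.12 to 0.83, and that of miR-221-5p between regions in sham from 0.37 to -0.0218. The cause was not tested.

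Leaving out single rats gave 0.35 to 0.48 for cortical miR-221-3p, 0.14 to 0.25 for miR-221-5p, 0.13 to 0.31 for miR-222-3p and 0.31 to 0.46 for the cortical sum. In thalamus it gave -0.17 to 0.12 for miR-221-3p, -0.0870 to 0.12 for miR-221-5p, -0.10 to 0.0840 for miR-222-3p, -0.25 to 0.10 for the sum, -0.15 to 0.13 for the ratio of miR-221-3p to miR-222-3p and -0.15 to 0.14 for the arm ratio. Between regions it gave 0.33 to 0.54 for the arm ratio and -0.00192 to 0.18 for the ratio of miR-221-3p to miR-222-3p. Without sham rat 38 the cortical count was 4, and without sham rats 26, 32 or 34 the thalamic count was 0. With 24 to 428 reads of miR-221-5p per thalamic library, counting error is largest in the shallowest libraries.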
